A study of Mus musculus with 19 samples.

Results

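The SLAM family receptor genes are a row of 7 genes on mouse chromosome 1 (Cd244, Ly9, Slamf7, Cd48, Slamf1, Cd84 and Slamf6), and their sequence was read in A223 cells, a mouse squamous cell carcinoma line whose strain is labelled C57BL/6-derived. The members were taken from a deposited table of variant calls by the gene name the authors gave each call. They are 7 of 11524 genes that hold at least 1 exome call there, and they hold 544 of 209790 exome calls. The table gives a genotype in exome DNA, a genotype in RNA, and the number of RNA reads over each position, for A223 cells grown in vitro. There was 1 exome library and 1 RNA library, with no replicate and no second condition, so every value below is a count or share from these libraries and no test was made. The genes were chosen on their calls, effects, genotypes and RNA depth, so these values describe the choice and support nothing. The remaining libraries of the series hold tumour-infiltrating cells and T cells of A223-bearing mice, and were not used here.

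SLAM receptors are membrane proteins of blood cells with immunoglobulin-like domains outside the cell. Most bind a copy of themselves on a neighbouring cell, whereas Cd244 (2B4), a receptor of natural killer cells and some T cells, binds Cd48, which is held to the membrane by a lipid anchor. Inside the cell, tyrosine motifs of most members recruit the small adaptors SAP and EAT-2, which turn contact into activating or inhibiting signals in T, B and natural killer cells. Laboratory mouse strains are known to carry a pair of main haplotypes of this gene row, which differ in many members, and the number of Cd244-like copies is known to differ between strains.

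Cd244 carried far more calls than the members beside it, and every coding call in the 7 genes was heterozygous. Cd244 held 393 exome calls, Ly9 37, Slamf1 34, Cd48 27, Slamf6 22, Slamf7 16 and Cd84 15. Of the 132 coding calls, 108 lay in Cd244, 14 in Ly9, 4 in Cd84, 2 in Slamf7, 2 in Cd48, 1 in Slamf1 and 1 in Slamf6. No RNA read lay over 127 of these 132 positions, so the RNA gave almost no second reading of them.

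The promoters of Cd244 and Cd48 are shown because heterozygous calls stood close together there. Both sequences are the reference from RefSeq, build GRCm38.p6, plus strand, from 250 bases before to 50 bases after a transcript start that lies inside the gene bounds, and capitals mark bases at which A223 was called. Single-base reference alleles of the deposited table matched this promoter set at 3148 of 3148 positions compared, so the positions are printed in that build. The Cd244 window, chr1:171558943-171559242, holds 3 heterozygous calls between bases 171559153 and 171559159. RefSeq names the gene Cd244a.
Cd244: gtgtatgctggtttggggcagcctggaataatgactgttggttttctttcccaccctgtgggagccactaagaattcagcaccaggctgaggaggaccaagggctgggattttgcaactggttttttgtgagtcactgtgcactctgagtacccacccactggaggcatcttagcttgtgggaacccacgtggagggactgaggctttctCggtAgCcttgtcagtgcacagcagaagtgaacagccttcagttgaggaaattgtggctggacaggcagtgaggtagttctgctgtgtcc
The Cd48 window, chr1:171681742-171682041, holds 6 heterozygous calls between bases 171681902 and 171682005, which the authors' table assigns to a processed pseudogene, RP23-145F9.2, and which are therefore not among the 27.
Cd48: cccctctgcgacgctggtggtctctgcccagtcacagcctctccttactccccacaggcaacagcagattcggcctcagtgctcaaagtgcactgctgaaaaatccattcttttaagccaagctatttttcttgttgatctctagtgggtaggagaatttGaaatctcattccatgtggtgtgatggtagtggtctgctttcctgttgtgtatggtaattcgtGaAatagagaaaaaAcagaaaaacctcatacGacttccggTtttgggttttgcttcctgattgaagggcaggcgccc
Of the other promoter windows in this set, those of Slamf7 and Slamf1 held 1 heterozygous call each and those of Cd84 and Slamf6 held 0. Ly9 had no window in the set. No RNA read lay over any of these promoter calls.

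The 7 genes sit within 394 kb, from the first call at 171554331 to the last at 171948326, in the stretch of chromosome 1 that was richest in exome calls. The window from 170 to 175 Mb held 3975 exome calls, the most of 39 windows of 5 Mb with any call on the chromosome. The next held 1200. Within it 83.0% of exome calls were heterozygous, and the SLAM genes held 13.7% of its calls.

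Over the 7 genes, 462 of 544 exome calls were heterozygous, a share of 84.9% (exact Clopper-Pearson 95% interval 81.6 to 87.8). The share was 83.4% (81.3 to 85.4) over 1303 calls in 74 neighbouring genes within 1 Mb, 52.5% over chromosome 1 and 40.1% over all exome calls of the table. The heterozygous share of the SLAM genes was thus close to that of the genes around them and higher than those of the chromosome and the table. These intervals cover counting error only, and calls in a stretch are inherited together, so they are not independent. Among coding calls, 132 of 132 were heterozygous in the SLAM genes and 187 of 187 in the neighbours, against 83.3% of chromosome 1 and 62.7% of coding calls in the whole table.

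**Figure D1:**
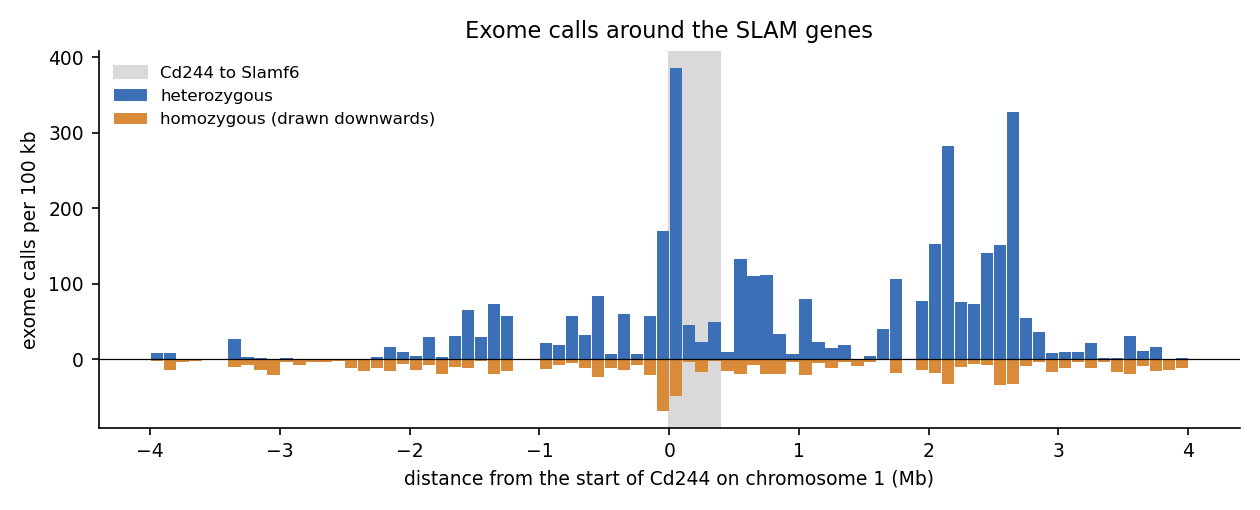
Exome calls per 100 kb on chromosome 1 by distance from the start of Cd244 in Mb, with heterozygous calls drawn upwards, homozygous calls drawn downwards and the span from Cd244 to Slamf6 shaded. The tallest bar, with 386 heterozygous and 48 homozygous calls, starts at Cd244, and further dense bins stand more than 2 Mb away, the highest with 327 heterozygous calls.

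The members differed in this share. All 22 exome calls of Slamf6 (Ly108), a receptor of T and B cells, were heterozygous. So were 26 of 27 in Cd48, 35 of 37 in Ly9 (CD229), a large receptor with several immunoglobulin-like domains, and 14 of 15 in Cd84, a self-binding receptor. Slamf7 (CRACC), a receptor of natural killer and plasma cells, had 13 of 16 and Cd244 334 of 393. Slamf1 (CD150), the founding member of the family and a self-binding receptor of lymphocytes, stood lowest with 18 of 34, or 52.9% (35.1 to 70.2).

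The homozygous calls were non-coding and lay away from coding calls. All 82 homozygous calls of the members were non-coding, 59 of them in Cd244 and 16 in Slamf1. In Cd244 they were 32 calls upstream of a transcript, 23 in introns and 4 in a 3′ untranslated region. In Slamf1, 13 of the 16 were intronic. Of non-coding calls in the members, 4 of 82 homozygous ones (4.88%) lay within 500 bases of a coding exome call, against 235 of 330 heterozygous ones (71.2%). These pooled shares rest largely on Cd244, which held 108 of the 132 coding calls. There, 321 of its 334 heterozygous calls, coding ones included, and 3 of its 59 homozygous ones lay within this distance. The distance is to a coding call and not to an exon, so it depends on how many coding calls a gene holds. The contrast was not read in each of the other members. In the neighbours the shares were 10.6% of homozygous and 43.7% of heterozygous non-coding calls. Exome read depth, which falls away from captured exons, is not in this table, and its part in the homozygous calls was not tested.

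**Figure D2:**
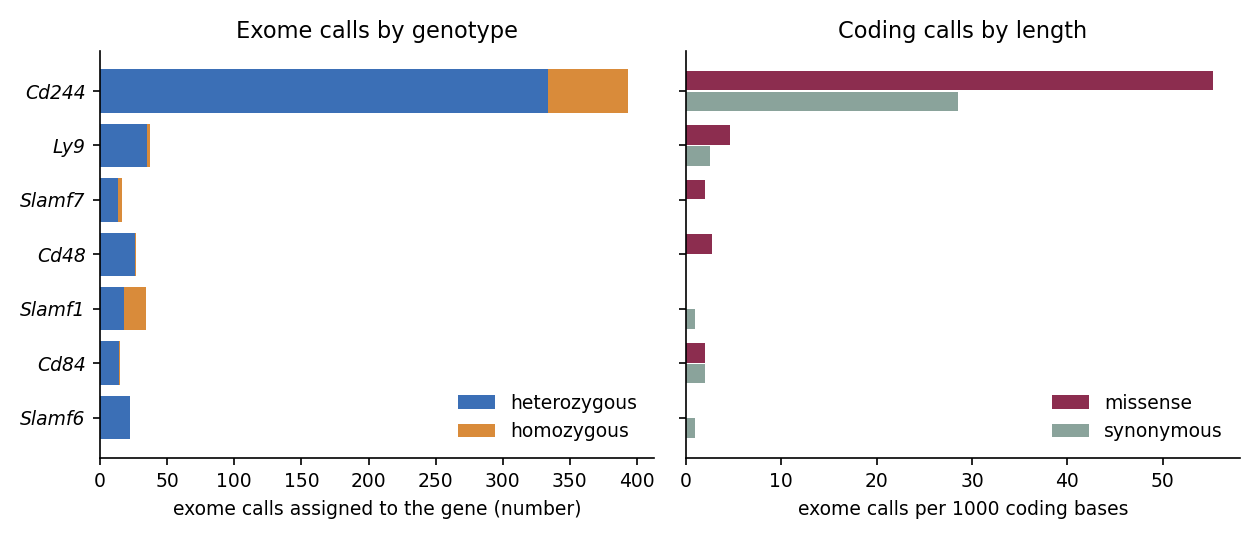
Left, exome calls of each SLAM gene in map order, split into heterozygous and homozygous; right, missense and synonymous exome calls per 1000 coding bases. Cd244, at the top, has 393 calls and 55.3 missense calls per 1000 coding bases, and no other member exceeds 37 calls or 4.58 missense calls per 1000 coding bases.

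Cd244 had 66 missense, 34 synonymous, 6 frameshift and 2 stop-gained exome calls in a coding sequence of 1194 bases. Its 55.3 missense calls per 1000 coding bases compared with 4.58 in Ly9, 2.77 in Cd48, 2.02 in Cd84, 1.98 in Slamf7 and 0 in Slamf1 and Slamf6. Its synonymous load was the highest of the 7 as well, with 28.5 calls per 1000 coding bases, against 2.54 in Ly9, 2.02 in Cd84, 1.00 in Slamf6, 0.969 in Slamf1 and 0 in Cd48 and Slamf7. Across the whole gene the 369 exome calls within its RefSeq bounds (171558718 to 171585316) came to 13.9 per kb. The other members had between 0.294 per kb, in Cd84, and 1.86 per kb, in Ly9.

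Over all genes with a coding exome call, 59.7% had at least 1 missense call, as did 5 of the 7 SLAM genes, and the median gene had 1. Cd244 ranked sixth of 4382 genes by number of missense calls. Nlrp1b with 128 and Mrgpra4 with 83 had the most. Per coding base 1 gene stood higher than Cd244. Mrgpra4, a sensory neuron receptor gene, had 88.1 missense calls per 1000 coding bases. By synonymous calls Cd244 ranked 9th of the same 4382 genes by number, with 34, and 2nd per coding base. Its high load was thus not confined to missense calls.

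Among the 74 neighbours within 1 Mb, the missense load stayed far below that of Cd244. The most missense calls in a neighbour were 7, in Itln1, an intestinal lectin gene whose calls begin at 171515233, on the near side of Cd244, with 7.43 per 1000 coding bases. Fcrl6, an Fc receptor-like gene, followed with 6, and Fcgr2b, the inhibitory Fc receptor, with 4. Within 5 Mb, over 162 genes, the most was 35, in Pydc3. Atp1a4, a sodium pump subunit, and Ncstn, a subunit of the gamma-secretase protease, had 3 each, as did the predicted gene Gm10521. The remaining SLAM family genes lay further along. Slamf8 had 3 missense and 6 synonymous calls, with the changes H175R, Y116H and R107G. Slamf9 had 2 missense and 0 synonymous calls, V29I and M74T.

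Missense calls outnumbered synonymous ones in the 7 SLAM genes pooled, but not in Cd84, Slamf1 or Slamf6 taken alone. Missense calls made up 65.3% of missense plus synonymous calls in the 7 members, 66% in Cd244 and 62.5% in the other 6, against 27.2% in the neighbours and 38.8% in the whole table. In the other 6 members this rested on 15 missense and 9 synonymous calls, most of them in Ly9. The pooled share of the neighbours covers unlike genes. Among those with 3 or more missense calls it was 85.7% in Fcrl6, 75% in Gm10521, 70% in Itln1 and 66.7% in Fcgr2b. It was 33.3% in Slamf8, 30% in Ncstn and 20% in Atp1a4. A missense excess was thus not particular to the SLAM genes. Transversions were nearly as many as transitions in Cd244. Its 102 single-base coding changes were 54 transitions and 48 transversions, a ratio of 1.12, against 5 in the other members (20 and 4), 3.72 in the neighbouring genes and 2.86 over the table.

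**Figure D3:**
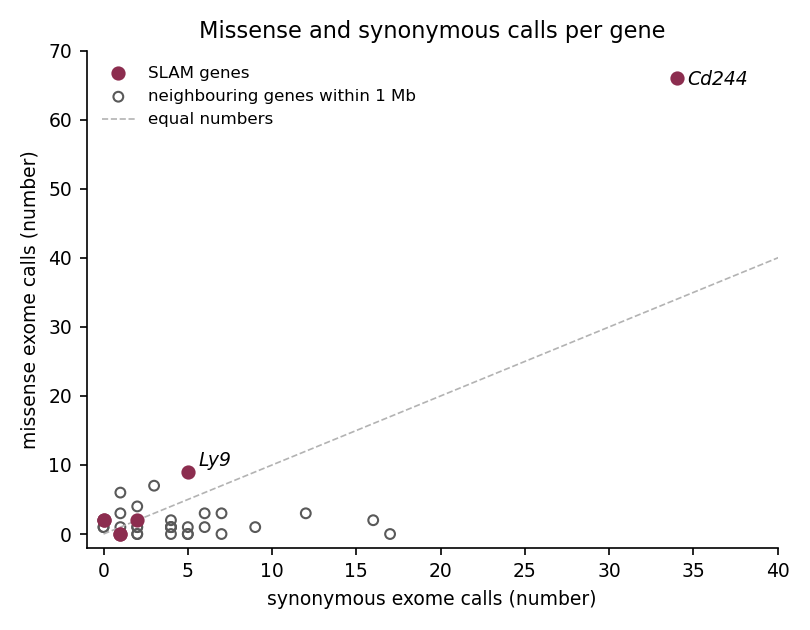
Missense against synonymous exome calls per gene for the 7 SLAM genes (filled) and the neighbouring genes within 1 Mb that hold a coding call (open), with a line of equal numbers. Cd244 stands alone at 34 synonymous and 66 missense calls, Ly9 follows at 5 and 9, and no neighbour has more than 7 missense calls.

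The Cd244 calls spread over most of the protein of 397 residues, and exons 2 and 3 held 34 and 33 of the 108 coding calls. Exon 2 held 29 missense and 2 synonymous calls in 324 coding bases, or 8.95 missense calls per 100 coding bases. Exon 3 held 16 missense and 15 synonymous calls in 276 coding bases, or 5.80 per 100. Both exons lie in the part that encodes the receptor outside the cell. Exon 1 held 2 synonymous calls and no missense call, and exon 9 held no coding call. The coding length of exons 4 to 9 was not derived, so calls per base were not compared over all exons.

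The 30 residues from 56 to 85 held 21 coding calls, 17 of them missense. In all, 63 of 397 residues (15.9%) carried a missense call, the first at residue 38 and the last at 367. The median gap between coding calls next to each other was 5 bases, and 19 of 107 gaps were 1 base. In Ly9 the median gap was 107 bases.

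**Figure D4:**
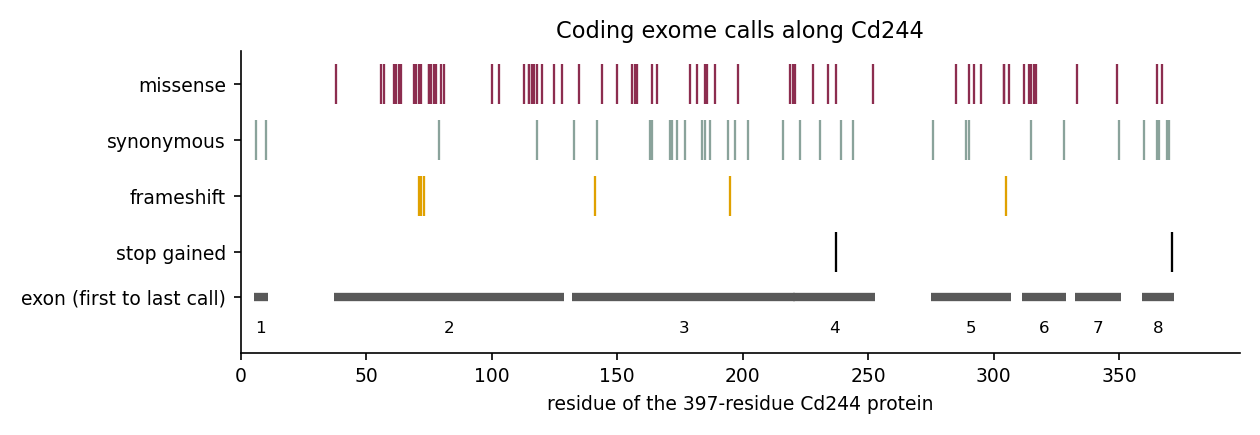
Coding exome calls of Cd244 by residue, in rows for missense, synonymous, frameshift and stop-gained calls, with bars from the first to the last coding call of exons 1 to 8. Missense calls crowd between residues 56 and 81 in exon 2, and no coding call lies before residue 6 or after residue 371.

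The missense changes are given with the reference residue, its position from the first methionine, and the called residue. In exon 2 they were Q38R, T56K, E57V, H61D, R62T, K63N, I64T, W69S, Y70C, N71K, D72N, S75I, S75R, W76C, S77P, N78T, S80A, F81S, K100Q, D103N, N113Y, G115S, G115D, G116R, K117T, V118A, N120T, L125I and L128F. In exon 3 they were N135H, T144A, L150Q, V156L, T157P, K158R, Y164D, L166F, S179G, W182L, Q185E, I186T, S189C, V198F, P219H and S220L. Exon 4 had N221K, G228V, L234P, L237I and R252W, and exon 5 had S285P, A290D, Q292P, G295E, R304S, R304H and S306F. Exon 6 had L312M, Q314E, Q315P, T316N and F317S, exon 7 had S333F and P349A, and exon 8 had S365N and T367I. Of these 66 changes, 23 altered the charge of the residue, counting lysine and arginine as positive and aspartate and glutamate as negative. Cysteine was gained in 3 and lost in 0, proline gained in 6 and lost in 2, and tryptophan lost in 3.

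In 10 codons of Cd244, 2 single-base calls fell in the same codon, and the authors' table gives the effect of each call alone. Read together, as they would be if both lay on the same chromosome copy, they give another residue in some codons. The stop call L237* and the missense call L237I together give lysine, L237K, and no stop. G115S and G115D together give G115N, R304S and R304H give R304N, and A290D with a silent call gives A290E. S75I and S75R together give S75I. The phase of the calls is not in the table, so which reading holds was not tested. The other stop call, E371*, stood alone in its codon and lies in exon 8, near the end of the protein.

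The frameshift calls of Cd244 also stood beside each other. In exon 2, starting between 171573830 and 171573835, an insertion of 2 bases, a second insertion of 2 bases and a deletion of 4 bases were called, which change the length by 0 in sum. The missense calls N71K at 171573832 and D72N at 171573833 lie between the insertions. On the same copy as the first insertion they would be read in a shifted frame, so the residues listed hold for each call alone. The remaining frameshift calls removed 16 bases and 2 bases in exon 3 and 1 base in exon 5. The longest is shown, with the deleted bases in capitals after the base before them, chr1:171574128-171574144, plus strand.
Cd244 deletion: aAGCCCTGGACTAATGG
All 6 were heterozygous. The calls P142P at 171574133 and T144A at 171574137 lie inside these deleted bases. Y194Y at 171574289 lies inside the deletion of 2 bases called at 171574287. A deleted base cannot also carry a substitution, so as called these changes and the deletions over them cannot lie on the same copy. Copies of Cd244-like sequence differ in number between strains, and the table holds neither allele read numbers nor exome depth, so whether all of these reads came from 1 copy of the gene was not tested and the Cd244 calls are uncertain to that extent.

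The other members carried fewer protein changes than Cd244. Over the 4382 genes with a coding exome call, the median was 0.45 missense calls per 1000 coding bases, and 4 of the 6 stood above it. By definition about as many genes stand above a median as below it. By that measure Ly9 ranked 290th, Cd48 569th, Cd84 823rd and Slamf7 835th of 4382 genes. Ly9 had 9 missense calls, G14S, I79T, F91S, H130Y, I139T, K366N, E377K, M550I and G592E, in a protein of 654 residues, and 5 synonymous ones. Cd48, the ligand of Cd244, had I4R and N90D in 240 residues and no synonymous call. Slamf7 had M248T and G253R, and Cd84 had V27M and K293E. Slamf1 and Slamf6 had 1 synonymous call each and no protein change. Of these 15 changes, 7 altered the charge of the residue. The other members had no frameshift, stop-gained, splice donor or splice acceptor call, and Ly9, Slamf1 and Slamf6 each had 1 non-coding call in a splice region.

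RNA reads over called positions were almost absent within the SLAM genes. At all 393 calls of Cd244, 34 of Slamf1, 22 of Slamf6, 16 of Slamf7 and 15 of Cd84 the RNA depth was 0 reads. Ly9 had 1 or 2 reads at 5 of 37 calls and 0 at the others, and no RNA genotype was called there. Over the table, 51.9% of coding exome calls had no RNA read, against 96.2% (127 of 132) in the SLAM genes. A depth of 0 holds for the called positions alone and is not an expression level of the gene.

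Markers were read by RNA depth too, but at exonic calls only, whereas the depths given for each SLAM gene cover all its calls. Of 12 markers of T and other blood cells, 5 had exonic calls, 11 in all, and no RNA read lay over any of them. Of 8 keratinocyte markers, 2 had exonic calls. Itgb4, an epithelial integrin, had 77 to 139 reads over 4 calls, whereas Cdh1, the epithelial cadherin, had 0 reads over 15 calls. Depth at exonic called positions thus did not set the blood cell markers apart from the epithelial ones.

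Cd48 was the exception, but the RNA reads lay outside the gene. Of its 43 calls in exome or RNA, 25 had RNA reads, and these all lay between 171679351 and 171679843, at least 1402 bases before the RefSeq start of the gene at 171681245. Its 16 calls inside the gene bounds had 0 RNA reads. In the upstream stretch of 493 bases the depth ran from 2 to 47 reads, with a median of 20.

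All 20 RNA genotypes called there were homozygous for the other base. Of these, 16 had no exome call, and 4 were heterozygous in the exome. Some of the 20 rested on 2 to 5 reads, among them 1 of the 4, at 171679714 with 5 reads. So few reads do not surely tell a homozygous from a heterozygous position. A further 5 heterozygous exome calls in the stretch had 11, 19, 24, 24 and 25 RNA reads and no variant called in RNA. These last include a deletion of 22 bases at chr1:171679758-171679780 with 25 reads and an insertion of 14 bases after 171679835 with 24 reads. They are shown, on the plus strand, because exome and RNA part there, with the deleted or inserted bases in capitals after the base before them.
Cd48 upstream deletion: aACATTGGCACATGAATGCGCCC
Cd48 upstream insertion: cGCAGCGCCGCAGGT
The next calls along the chromosome are assigned in the table to the same pseudogene. Whether the RNA reads came from this place or from a similar sequence elsewhere was not tested.

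**Figure D5:**
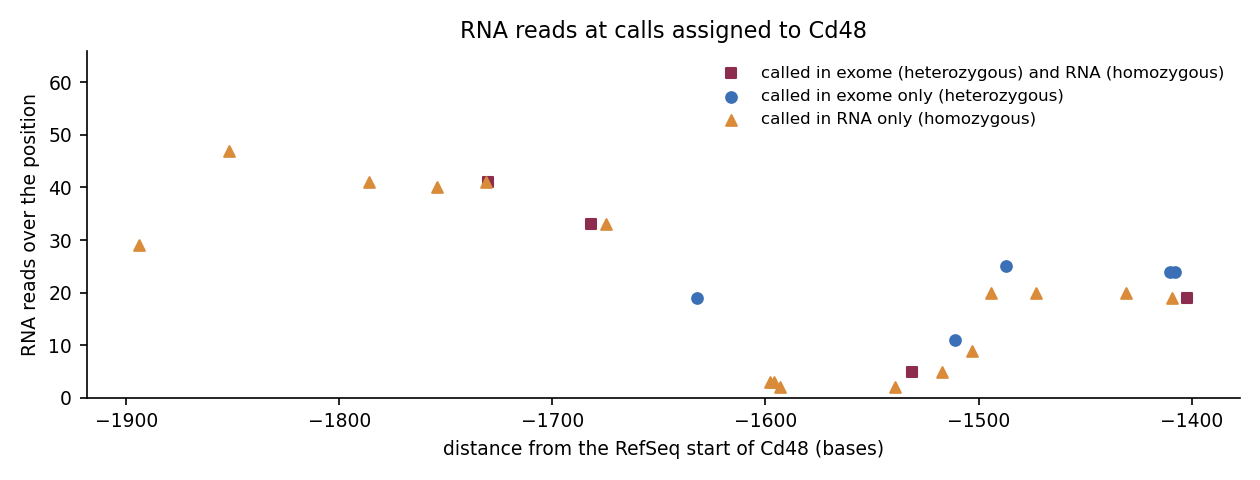
RNA reads over each of the 25 calls assigned to Cd48 that had any, by distance in bases from the RefSeq start of the gene, with the marker showing whether exome, RNA or both called the position. The positions called in RNA are all homozygous there and stand among heterozygous exome calls that RNA did not call.

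Genotypes in DNA and RNA could therefore be compared at 5 SLAM exome calls with 20 or more RNA reads, all in the stretch upstream of Cd48. None of the 5 had the same genotype in RNA (exact 95% interval 0 to 52.2%). The 2 single-base changes among them were homozygous in RNA, and the 3 not called were all insertions or deletions. The shares that follow are not split by type of change, so they are not matched to these 5 calls. These 5 calls lie close together and are not independent, so the interval covers counting error only. Over the table, 63.7% of 14310 exome calls at this depth, of any genotype and effect, had the same genotype. Of exonic heterozygous exome calls over the table, 66.6% of 5696 did. In the exons of neighbouring genes, 69 of 76 heterozygous exome calls at this depth (90.8%) were also heterozygous in RNA, none was homozygous and 7 were not called. Pigm, an enzyme of the lipid anchor pathway, was heterozygous in RNA at 15 of 15 calls with 27 to 69 reads. Copa, a coat protein of Golgi vesicles, was so at 11 of 11 with 69 to 485 reads, and Ncstn at 11 of 11 with 46 to 162. On the other side of the SLAM genes, Atf6, a sensor of unfolded protein, was so at 14 of 17. Heterozygous calls on both sides of the SLAM genes were thus read from RNA as heterozygous, and within the SLAM genes no such reading was possible.

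Among the signalling partners of the family, 1 gene held a protein-changing exome call. Of 16 mouse genes of SLAM signalling (among them adaptors, kinases, phosphatases and a further receptor), 9 had an exome call, 5 a coding one and 4 no call in exome or RNA. The 1 of 5 with a missense call stands beside the 59.7% given above for all genes with a coding exome call. It was Sh2d1b1, which encodes the adaptor EAT-2 and lies on chromosome 1 as well. It had 31 exome calls, 21 heterozygous and 10 homozygous, and a heterozygous missense call, N68D, with 0 RNA reads.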

How the data were processed

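Exome DNA and polyA RNA of A223 cells were read in 1 library each. Per the submitters' processing notes the authors used BWA and GATK. Versions and the genome build are not given in the sources used here. The deposited table holds 564674 calls with a genotype in exome and in RNA and, per the file headers, an RNA depth, which is a count of reads over the position without normalisation. A dash was read as no call. RNA depth could not be read for 34 calls, which held several numbers. The copies given for both samples were identical.

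Calls were counted once per position and allele by gene name, effect and genotype in Python 3.11.15 with pandas 2.3.3. Coding calls are missense, synonymous, stop, start-loss, frameshift and in-frame calls. Coding lengths are those of the deposited transcript. Neighbours are genes with an exome call within 1 Mb of the outermost SLAM calls. Intervals are exact Clopper-Pearson 95% intervals from SciPy 1.17.1. The 10 intergenic calls before Cd244 were not counted. Counting was tested on simulated data. The members and lists were chosen with earlier results of these data known. The text names every member with its protein-changing calls, Slamf8, Slamf9, the neighbours with most missense calls, and signalling genes with a protein-changing exome call. Pigm, Copa, Atf6, Pydc3, Nlrp1b, Mrgpra4 and the markers with calls were named after their values were seen. Cd58, on the signalling list, is not in the RefSeq mouse table and was left out of its counts. Alternatives were gene bounds, single-base, heterozygous or coding calls, other minimum depths and neighbours within 5 Mb.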

Additional observations from a re-analysis of the deposited data

How the results depend on the processing

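No paired analysis was possible because the exome and the RNA are 1 library each and no groups were compared. The count of 544 exome calls was 525 for every call inside the gene bounds, 480 for single-base changes only and 560 with RNA calls added. The 66 missense calls of Cd244 stayed 66 with RNA calls added, for single-base changes only and for heterozygous calls only. The heterozygous share of 84.9% was 86.7% for single-base changes, 100% for the 132 coding calls and 100% for the 5 calls with 20 or more RNA reads. Agreement of RNA with exome genotypes was 0% at 20 or more reads, at 10 or more (8 calls) and for single-base changes at 20 or more (2 calls), and no exome call reached 50 reads. With no minimum the share says nothing, since 530 of 544 calls had no RNA read. The median RNA depth of 0 reads stayed 0 for coding calls, and the mean was 0.386 reads. Within 5 Mb in place of 1 Mb, the most missense calls in a neighbour were 35, in Pydc3, in place of 7. Exome depth and allele read numbers were not in the table, so no call could be weighed by them. RNA depth limits the comparison of genotypes to the stretch before Cd48.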
